A study of Nematostella vectensis with 33 samples.

Results

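Whole polyps of the sea anemone Nematostella vectensis that were given 2'3'-cGAMP, a cyclic dinucleotide, were compared with polyps that were left untreated. The groups were taken from the sample titles, and each held 2 libraries, so 4 of the 33 libraries of the study are compared here. The polyps given 2'3'-cGAMP received it at 500 µM for 24 h. The labels give no time or vehicle for the untreated polyps, and they do not say how many animals went into a library or whether the replicates came from separate cultures, so the p-values cover no more than the spread among these libraries, which may be technical. All polyps were kept at room temperature in diluted sea water, and polyadenylated RNA of the whole animal was sequenced. The same table held 2 libraries for each of 3 other cyclic dinucleotides, c-di-AMP, 3'3'-cGAMP and c-di-GMP, also at 500 µM for 24 h. They entered the estimate of spread and a direct comparison with 2'3'-cGAMP. The study also held embryos injected with short hairpin RNAs (shRNAs). Of these, only the embryos with the control shRNA against GFP, untreated or given 2'3'-cGAMP at 100 µM for 4 h, are described here, with 2 libraries each from 1 experiment. Another 3 such libraries with 2'3'-cGAMP belong to an experiment with no untreated embryos and were not used here.

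In animals, 2'3'-cGAMP is a second messenger made by enzymes of the cGAS family, and it binds the receptor STING. In mammals, STING then activates the transcription factors IRF and NF-κB, which switch on interferons and other antiviral and antibacterial genes. The other cyclic dinucleotides tested are known mainly as signals of bacteria, and 3'3'-cGAMP differs from 2'3'-cGAMP in that one of its phosphodiester bonds joins the 3' in place of the 2' position. Nematostella, a cnidarian, has a STING homologue but no known interferons. The files identify genes by NCBI Gene number only, and the RefSeq gene table used here (assembly jaNemVect1.1) gives placeholder symbols with no description. Genes are therefore described by identifier, level, change and neighbourhood, with no role.

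Values were the authors' normalised counts. The 2'3'-cGAMP libraries stood apart from the rest. Their normalised counts summed to 22.34 and 22.36 M (mega), against 9.56 to 10.55 M in the other 8 polyp libraries. A single read was worth 2.38 and 1.90 normalised counts in them, against 0.560 to 0.930 elsewhere. Their estimated depth of 9.37 and 11.8 M reads was near the 12.4 and 10.8 M of the untreated polyps, but 11.3% and 9.81% of genes were listed at 0 in them, against 3.81 to 5.77% elsewhere. Across genes, the 2 libraries of a group correlated with r = 0.941 for 2'3'-cGAMP and r = 0.948 to 0.962 for the other groups, where genes are not independent replicates. Since the deposited scaling lets totals differ, numbers of called genes and changes against untreated polyps were also computed with equal library totals. Counts above a fixed level, and differences of chosen genes from the other compounds, were computed with the deposited scaling alone. Setting equal totals lowered the median log2 change over all tested genes from -0.10 to -1.21, and changes are best read relative to those medians. Whole polyps are mixtures of cell types, so fewer cells of a type and less RNA per cell cannot be told apart.

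Which genes differed between polyps given 2'3'-cGAMP and untreated polyps was the first question. Genes that reached 10 normalised counts in 2 or more of the polyp libraries were tested, 18511 in all. Of these, 58.5% were called, 28.5% as higher and 30% as lower (limma on log2 of the value plus 1, adjusted p below 0.05). A log2 change of at least 3, which is 8-fold, was called for 1089 genes upward (5.88% of those tested) and 724 downward (3.91%). At a log2 change of at least 5 the counts were 339 and 42, and at 7 they were 101 and 1. A fall is bounded by the starting level, and only 43.2% of tested genes were high enough in untreated polyps to fall by 7, whereas a rise has no such bound. These 1089 genes are called strongly raised here, and the 724 strongly lowered. Of the 1089, 174 entered the test only through the 2'3'-cGAMP libraries, so they had to be higher there.

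Setting equal totals moved the balance of directions. Of all called genes, 48.7% were higher with the deposited scaling and 15.8% with equal totals. Of the genes called higher as deposited, 2123 stayed higher (11.5% of those tested), 792 became lower and 2356 were no longer called. All 5557 genes called lower as deposited stayed lower among the 61% of tested genes that were lower with equal totals. Of the strongly raised genes 1019 of 1089 were still called higher, and 724 of 724 strongly lowered genes were still called lower. Equal totals shift log2 changes downward by construction, so the falls were bound to persist, and these counts are no check on them. With equal totals, 563 genes rose and 2025 fell by a log2 change of at least 3, so the count of large falls passed that of large rises. Scaling by a trimmed mean of log ratios (TMM), which also lets totals differ, gave 5254 genes called higher and 5578 lower. The deposited scaling gave 5271 and 5557, so the balance moved with equal totals and hardly with TMM.

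**Figure D1:**
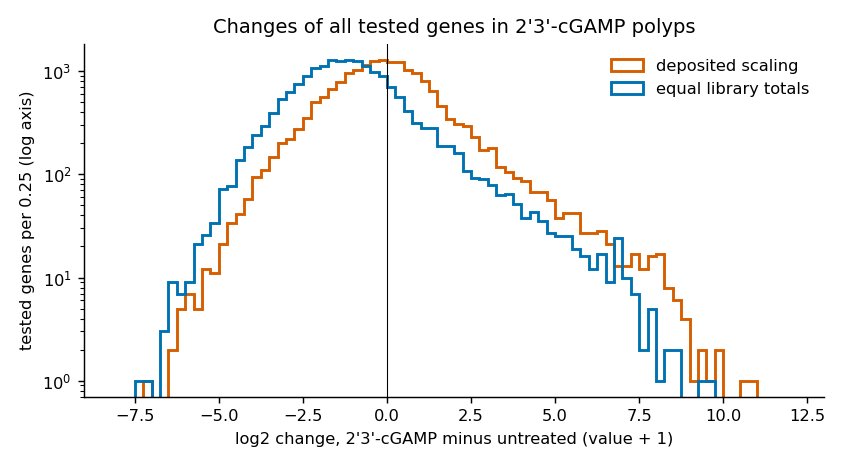
Log2 change between 2'3'-cGAMP and untreated polyps for all 18511 tested genes, as the number of genes per bin on a log axis, with the deposited scaling and with equal library totals. The right tail runs past a log2 change of 7 under both scalings (101 genes as deposited, 31 with equal totals), while the left tail holds 1 and 2 such genes.

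The strongly raised genes were low in untreated polyps and took up a large part of the RNA after 2'3'-cGAMP. Their median level was 47.4 normalised counts in untreated polyps and 1200 in 2'3'-cGAMP polyps. Together they held 2.38% and 2.51% of the total in the untreated libraries and 35.8% and 34.9% in the 2'3'-cGAMP libraries, a share that needs no scaling between libraries. The same genes held 3.90% and 3.39% with c-di-AMP, 3.08% and 2.73% with 3'3'-cGAMP, and 2.66% and 2.58% with c-di-GMP. The genes were chosen on the first 4 of these libraries, so the gap there is a description. The 2 libraries of each group lay close together, and both 2'3'-cGAMP libraries lay above the other 8.

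**Figure D2:**
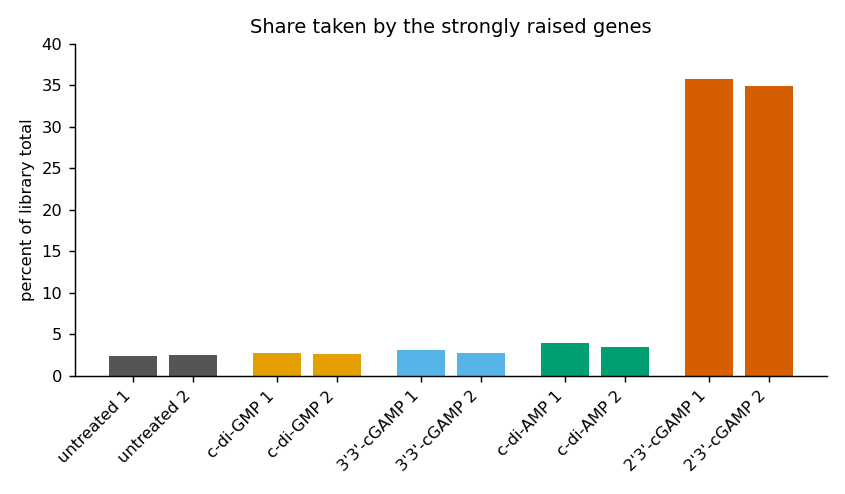
Percent of each polyp library's total taken by the 1089 strongly raised genes, 1 bar per library. The bars of the 2'3'-cGAMP libraries reach 35.8% and 34.9%, and those of the other 8 libraries lie between 2.38% and 3.90%.

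The genes were also split by level. Levels were taken from the 6 libraries of the other 3 compounds, which took no part in the contrast. Among 1498 genes with a mean below 10 there, 15.1% were strongly raised and 4.34% strongly lowered. The filter bears on that class, since 497 of its genes, among them 174 of its 226 strongly raised ones, passed only through the 2'3'-cGAMP libraries. Among 7999 genes from 10 to 100, 5.24% were strongly raised and 6.43% strongly lowered. From 100 to 1000 the shares were 5.09% and 1.77% of 7391 genes, and from 1000 to 10000 they were 4.5% and 0.873% of 1489 genes. Of 134 genes of 10000 or more, 1 was strongly raised and 1 strongly lowered. The precision differed along this range, since the median 95% interval of a log2 change reached 2.17 to each side in the lowest class and 0.303 in the highest. In the highest class 83.6% of genes were called, with a median log2 change of 0.82 as deposited and -0.34 with equal totals.

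Some genes crossed from below 10 normalised counts to above 100. Of 21260 genes, 81 were below 10 in both untreated libraries and above 100 in both 2'3'-cGAMP libraries, and 16 did the opposite. The cut of 100 lay near the median level of tested genes, 95.1 in untreated and 89.1 in 2'3'-cGAMP polyps. Above 10000 in both libraries were 357 genes with 2'3'-cGAMP and 121 in untreated polyps. Of those 357 genes, 108 had been above 10000 in both untreated libraries and 90 had been below 1000 in both. These counts use the deposited scaling, where 2'3'-cGAMP libraries had totals of 22.34 and 22.36 M, against 9.56 to 10.55 M elsewhere. Larger totals let more genes pass a fixed level, and no such counts were made with equal totals. Of the strongly raised genes, 47 were listed at 0 in both untreated libraries. Their fitted changes depend on the pseudocount and are no bounds.

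Among called genes with a reference entry, a mean of at least 50 and no overlap between the groups, the 12 of largest log2 rise rose by 8.53 to 10.83 on the log2 scale, with adjusted p from 5.83e-11 to 3.83e-05 (limma). With the 2 compared groups fitted alone, their adjusted p ran from 2.98e-06 to 0.000633 (limma). LOC5514999 had 1.70 and 3.54 normalised counts in untreated polyps and 5915 and 6845 with 2'3'-cGAMP. The other compounds left it at 0.873 to 3.72 normalised counts, within reach of the untreated libraries. Its log2 change was 10.83 (95% interval 9.52 to 12.14, adjusted p = 1.2e-07, limma). At 2 to 4 reads in each untreated library the starting level is itself uncertain, and the log2 change depends on the pseudocount.

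LOC5512707 reached the highest level of the 12. It had 1025 and 1211 normalised counts in untreated polyps and 586254 and 491820.0 with 2'3'-cGAMP, a log2 change of 8.91 (95% interval 8.47 to 9.35, adjusted p = 3.64e-10, limma). This gene alone held 2.62% and 2.20% of the total in the 2'3'-cGAMP libraries, against 0.00972% and 0.0127% in the untreated ones. With c-di-AMP it stood at 2537 and 2332 normalised counts, with 3'3'-cGAMP at 1532 and 2493, and with c-di-GMP at 859 and 940.1. All 4 libraries of c-di-AMP and 3'3'-cGAMP lay above both untreated libraries, and both c-di-GMP libraries lay below them, though all 6 were far under the 2'3'-cGAMP libraries.

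LOC5508998 went from 334 and 300.03 normalised counts in untreated polyps to 248987 and 171183 with 2'3'-cGAMP, a log2 change of 9.35 (95% interval 8.89 to 9.80). LOC116616218 went from 303 and 363 to 132456 and 125371, a log2 change of 8.60 (95% interval 8.33 to 8.87). LOC5502150 went from 46.3 and 78.5 to 32447 and 27113, a log2 change of 8.92 (95% interval 8.37 to 9.46). In each of these genes the groups were separated by more than 100 times the untreated level, and the pairs of libraries differed by less than a factor of 2.

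LOC5517508 also differed among the other compounds. It had 40.8 and 37.2 normalised counts in untreated polyps, 51.9 and 33.2 with c-di-GMP, 136 and 142 with 3'3'-cGAMP, 371 and 292 with c-di-AMP, and 20724 and 21756 with 2'3'-cGAMP. The c-di-GMP libraries enclosed the untreated ones, and the other groups followed in order without overlap. The direct difference between 2'3'-cGAMP and c-di-AMP was 6.01 on the log2 scale, the least of the 12. LOC5507694, at 25.5 and 28.3 normalised counts in untreated polyps and 10246 and 10666 with 2'3'-cGAMP, had 115 and 83.0 with c-di-AMP. It rose by 8.55 on the log2 scale.

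LOC116614705 was the only one of the 12 that the reference lists as a long noncoding RNA. It had 17.0 and 15.9 normalised counts in untreated polyps and 6954 and 7547 with 2'3'-cGAMP, a log2 change of 8.70 (95% interval 8.14 to 9.26). In the order of annotated genes it lay directly beside LOC5507387, a protein-coding gene that rose by 8.04. Reads from overlapping or neighbouring transcripts could be shared, and the labels do not say whether strand was used. The other 4 of the 12, LOC116618411, LOC116603455, LOC5519900 and LOC116614704, stood in runs of neighbouring raised genes that are described further on.

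**Figure D3:**
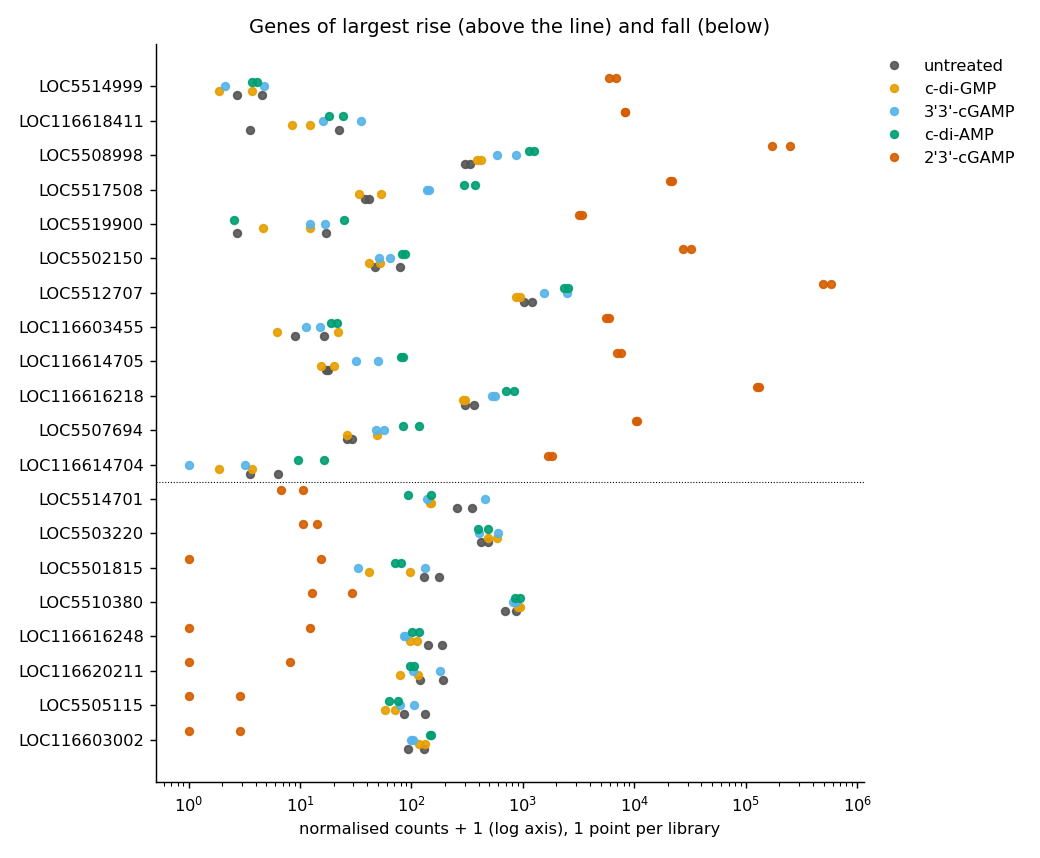
Normalised counts plus 1 (log axis) in each of the 10 polyp libraries for the 12 genes of largest rise and, below the dotted line, the 8 of largest fall among genes with a reference entry. In the upper rows the 2'3'-cGAMP points lie apart to the right of all other groups, and in the lower rows they lie apart to the left.

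Ranked by the rise in normalised counts, where a gene's starting level matters, 6 genes accounted for 13% of the summed rises of all genes, and the first 100 for 47.5%. All rises summed to 13.94 M normalised counts and all falls to 1.64 M. The excess of 12.3 M is the gap in library totals under the deposited scaling, and with equal totals the sums would be equal by construction. The strongly raised genes held 54.9% of the rises. Besides LOC5512707 and LOC5508998, the 6 were LOC5510886, LOC5503216, LOC5504418 and LOC5518330. LOC5510886 rose from 2809 and 3022 to 474725 and 448682, a log2 change of 7.31 (95% interval 6.92 to 7.69). LOC5518330 rose from 3627 and 3058 to 167894 and 165455, a log2 change of 5.64 (95% interval 5.37 to 5.92). Both genes had adjusted p of at most 5.09e-10 (limma), and in neither did any other compound exceed 7623 normalised counts.

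LOC5504418 was of another kind. It was among the most abundant transcripts before treatment, at 160370.0 and 163582 normalised counts, and stood at 366497 and 331201 with 2'3'-cGAMP, a log2 change of 1.11 (95% interval 0.77 to 1.44, adjusted p = 0.00011, limma). As a share of the library it took 1.52% and 1.71% in untreated polyps and 1.64% and 1.48% with 2'3'-cGAMP, so the groups overlapped. With equal totals its log2 change was -0.05 (adjusted p = 0.789, limma), so its rise was not called under that scaling.

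The strongly lowered genes started from a like median level, 44.6 normalised counts, and stood at a median of 3.79 with 2'3'-cGAMP. Their share of the library total was 2.16% and 1.78% in untreated polyps and 0.0664% and 0.0711% with 2'3'-cGAMP, against 1.23 to 2.19% with the other compounds. At 2.38 and 1.90 normalised counts per read, many of the low values were a few reads. Of these genes, 161 had no signal in either library given 2'3'-cGAMP. The 2 libraries of 2'3'-cGAMP differed by a median of 1.04 on the log2 scale over the strongly lowered genes and by 0.16 over the strongly raised ones, so falls were measured less precisely than rises. The choice of strongly changed genes on these 4 libraries nearly fixes that their groups do not overlap, and 1 gene, NCBI Gene 116613167, was the exception. Over all tested genes 37.7% were higher and 40.1% lower without overlap. The exception had 81.5 and 23.9 normalised counts in untreated polyps and 0 and 26.6 with 2'3'-cGAMP.

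The 8 genes of largest fall, chosen under the same conditions, had log2 changes from -6.02 to -5.16, with adjusted p from 2.6e-08 to 0.00158 (limma). That fit pools the spread of all 10 polyp libraries. With the 2 compared groups fitted alone, the adjusted p of these 8 genes ran from 9.54e-05 to 0.0194 (limma). LOC5510380 gave the highest starting level, 875 and 690.3 normalised counts in untreated polyps against 11.9 and 28.4 with 2'3'-cGAMP, a log2 change of -5.32 (95% interval -5.98 to -4.65). With the other compounds it stayed between 819.6 and 942. LOC5503220 had 483 and 421 in untreated polyps and 9.54 and 13.3 with 2'3'-cGAMP, a log2 change of -5.20 (95% interval -5.71 to -4.69). In both genes the 2'3'-cGAMP libraries lay far under all 8 other libraries.

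Several of the 8 were at or near 0 with 2'3'-cGAMP. LOC116603002 had 128 and 92.9 normalised counts in untreated polyps and 0 and 1.90 with 2'3'-cGAMP, and LOC5505115 had 84.1 and 132 against 0 and 1.90. LOC116620211 had 117 and 189 against 7.15 and 0, LOC116616248 had 140.1 and 186 against 0 and 11.4, and LOC5501815 had 177 and 127 against 14.3 and 0. In all 5 genes the groups did not overlap, and the 2'3'-cGAMP values were a handful of reads at most. LOC5514701 had 352 and 255 against 9.54 and 5.69. Its values with 3'3'-cGAMP, 137 and 458, differed more than 3-fold between libraries, as did those of LOC5501815, 31.9 and 132.

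In normalised counts, the largest falls were in abundant genes. LOC116616309 had 75224 and 65916 in untreated polyps and 4673 and 5053 with 2'3'-cGAMP, a log2 change of -3.86 (95% interval -4.27 to -3.44, adjusted p = 4.9e-08, limma). LOC5517034 had 116108 and 91579 against 42474 and 47992, a log2 change of -1.19 (95% interval -1.53 to -0.86). LOC116614942 had 24511 and 18852 against 2959 and 2779, a log2 change of -2.91 (95% interval -3.47 to -2.35). LOC5516909, at 44858 and 39915 against 26492 and 27886, fell least, with a log2 change of -0.64 (95% interval -0.99 to -0.29, adjusted p = 0.0052, limma). With equal totals these 4 changes were -5.01, -2.35, -4.06 and -1.79, which are larger falls by construction.

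At the quiet end, 4 genes with a mean above 1000 over all polyp libraries showed the smallest changes with a standard error below 0.2. LOC5525231 had 5265 and 4929.8 normalised counts in untreated polyps and 5116 and 5104 with 2'3'-cGAMP (95% interval of the log2 change -0.23 to 0.24). LOC5510265 had 1371 and 1339 against 1249 and 1466 (95% interval -0.26 to 0.25). LOC5505826 had 1483 and 1113 against 1273 and 1299, and LOC116620378 had 958 and 974 against 1139.7 and 817. In all 4 genes the groups overlapped. This holds for the deposited scaling alone, since with equal totals the 4 log2 changes lay at -1.16 to -1.15, close to the median of all tested genes.

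Among genes without an entry in the reference, 951 of 3576 tested (26.6%) were called higher and 633 (17.7%) lower, against 28.5% and 30% of all tested genes. They were not eligible for the 12 rises and 8 falls above, although some changed as much. NCBI Gene 116615652 (log2 change 10.60) lay above all but the first of the 12, and NCBI Gene 116617477 (-6.02) and NCBI Gene 116604992 (-7.16) fell at least as far as the first of the 8. Of the strongly raised genes, 71.2% had an entry, against 80.7% of the tested genes, and of the strongly lowered genes 75.1% had one. NCBI Gene 116603453 had 62.0 and 91.9 normalised counts in untreated polyps and 65268 and 69169 with 2'3'-cGAMP, a log2 change of 9.78 (95% interval 9.30 to 10.26, adjusted p = 3.64e-10, limma). With the other compounds it stood between 61.0 and 193. NCBI Gene 116604992 had 160.5 and 125 normalised counts in untreated polyps and 0 in either library given 2'3'-cGAMP, and was also low with c-di-AMP (4.54 and 1.57) and c-di-GMP (5.47 and 2.62), and had 12.3 and 201 with 3'3'-cGAMP. Its direct difference from 2'3'-cGAMP was not called for c-di-AMP (log2 difference -1.91, adjusted p = 0.152, limma) or c-di-GMP (-2.27, adjusted p = 0.0943). LOC5516909 was the other named fall without a call against c-di-AMP (-0.35, adjusted p = 0.0819, limma).

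By annotation, 80.3% of the tested genes were protein-coding. Of these 14859 genes 28.9% were called higher and 33.1% lower, near the 28.5% and 30% of all tested genes. Strong rises were called for 768 (5.17%) and strong falls for 539 (3.63%), against 5.88% and 3.91% of all tested genes. Of 30 long noncoding RNAs, 9 (30%) were higher and 8 (26.7%) lower, also near those shares. Of these RNAs, 4 (13.3%) were strongly raised and 2 (6.67%) strongly lowered. Of 34 genes of the class misc_RNA, 13 (38.2%) were higher and 1 (2.94%) was lower. Of 12 pseudogenes, 5 (41.7%) were higher and 4 (33.3%) lower. These classes other than protein-coding are small, and their balance of directions was not tested.

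At matched dose and time, 2'3'-cGAMP was also set directly against each other cyclic dinucleotide. No untreated library enters these differences, but the 2'3'-cGAMP libraries that chose the genes do, so counts over the chosen genes are a description. Against c-di-AMP, 56% of tested genes were called (27.8% higher and 28.2% lower). Against 3'3'-cGAMP, 58.1% were called (28.6% and 29.5%), and against c-di-GMP 56% (27.6% and 28.4%), all with limma at an adjusted p below 0.05. As in the comparison with untreated polyps, equal totals moved the balance, to 1996 genes higher and 11301 lower against c-di-AMP, 2059 and 11300 against 3'3'-cGAMP, and 2083 and 11317 against c-di-GMP. Of the 1089 strongly raised genes, 1018 were higher than with c-di-AMP, 1025 than with 3'3'-cGAMP and 1021 than with c-di-GMP, and none was lower than with any of them. The median differences were 3.69, 3.95 and 4.03 on the log2 scale. Of the 724 strongly lowered genes, 648, 668 and 651 were lower than with the same compounds in that order, with median differences of -3.27, -3.39 and -3.24.

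The strongly raised genes had a median level of 78.2 normalised counts with c-di-AMP, 62.5 with 3'3'-cGAMP, 50.3 with c-di-GMP and 47.4 in untreated polyps. The choice of these genes favoured low values in the untreated libraries, so the place of untreated polyps in this order is a description. The strongly lowered genes, chosen the other way, had medians of 36.1, 41.1, 34.9 and 44.6 in the same order. A response to the other compounds was not tested. For the 12 genes of largest rise, the direct differences ran from 6.01 to 10.66 against c-di-AMP, from 7.24 to 10.97 against 3'3'-cGAMP and from 8.18 to 11.23 against c-di-GMP, with all 36 called. For the 8 genes of largest fall they ran from -6.44 to -3.81, -5.90 to -4.08 and -6.19 to -4.02, with all 24 called. Over all tested genes 56% were called against c-di-AMP, 58.1% against 3'3'-cGAMP and 56% against c-di-GMP. The 12 and the 8 genes were chosen for their change in the same 2'3'-cGAMP libraries, so these ranges are a description of chosen genes. P-values were adjusted over all tested genes within each of these 3 comparisons, and not over the comparisons.

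Strongly raised genes were often neighbours in the genome. In the order of protein-coding genes of the jaNemVect1.1 assembly, 185 of 768 strongly raised genes (24.1%) had a strongly raised gene directly beside them, against 1016 of 14089 other tested genes (7.21%). For strongly lowered genes the shares were 66 of 538 (12.3%) and 5.68% of the other tested genes. The raised neighbours formed 69 runs of 2, 9 runs of 3 and 5 runs of 4 genes, and the lowered ones 33 runs of 2. Of the 102 raised pairs, 18 had overlapping spans, where reads could be counted for either gene. Without such pairs the share was 20.1%, against 6.20% of the others. Equal totals gave a smaller set of 391 strongly raised genes, of which 23.5% had a neighbour in that set, against 3.65% of the others. With the deposited scaling and noncoding genes kept in the order, 19.7% did, against 6.31%. Neighbours are not independent of each other, no test was made, and whether the neighbours arose by duplication or share reads was not tested.

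The 5 runs of 4 were named after their values were seen. In the first, LOC116614706 went from 86.6 and 83.2 normalised counts in untreated polyps to 24200.2 and 27692 with 2'3'-cGAMP, and LOC5507391 from 389 and 362 to 110545 and 113717. LOC116614704 went from 2.55 and 5.31 to 1681 and 1828, and LOC5507387 from 69.6 and 100.01 to 23940.3 and 20586. After 2'3'-cGAMP the levels of the 4 genes ran from 1681 to 113717, while their log2 changes lay within 8.04 to 8.53. The noncoding LOC116614705, with 8.70, followed directly. The protein-coding gene on the other side of it, LOC5507382, did not pass the test, with a log2 change of -0.61 (adjusted p = 0.156, limma).

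In the run LOC5519898, LOC116618411, LOC116603455 and LOC5519900 all 4 genes were near the detection limit in untreated polyps, from 1.70 to 21.2 normalised counts. With 2'3'-cGAMP LOC5519898 had 908 and 982, LOC116618411 8217 and 8295, LOC116603455 5874 and 5589 and LOC5519900 3161 and 3423. Their log2 changes were 7.27, 9.86, 8.89 and 8.93. The 2 libraries with 2'3'-cGAMP differed little in each, whereas LOC116618411 had 2.55 and 21.2 normalised counts in untreated polyps and LOC5519900 had 1.70 and 15.9, so the error of these changes lies in the untreated libraries.

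The run that starts with LOC5503216 ended abruptly. LOC5503216 went from 827 and 705 normalised counts to 261756 and 252174, LOC5503224 from 301 and 281 to 51759 and 46992, LOC5503217 from 56.3 and 49.5 to 18739 and 16968, and LOC116610889 from 20.7 and 24.3 to 769.8 and 624. Their log2 changes were 8.39, 7.40, 8.37 and 4.89. The next protein-coding gene was LOC5503220, one of the 8 genes of largest fall, with a log2 change of -5.20, and the one after it, LOC5515437, had -3.26 (adjusted p = 0.000149, limma). The gene before the run, LOC5503215, did not pass the test (log2 change -0.26, adjusted p = 0.494).

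In the run LOC5518585, LOC116602083, LOC5518586 and LOC5518534 the changes were graded, at 6.91, 8.07, 5.44 and 3.01 on the log2 scale. The next gene, LOC116602136, was also called higher (log2 change 2.24, adjusted p = 5.87e-05, limma), so the end of this run depends on the cut of 3. The gene before it, LOC116602131, was not called (2.69, adjusted p = 0.0717). LOC5518586 was also higher with c-di-AMP, at 1287 and 1324 normalised counts, and with 3'3'-cGAMP, at 918 and 767, than in untreated polyps, at 464 and 468, and it had 20581 and 20079 with 2'3'-cGAMP. Its neighbour LOC116602083 had 38.2 and 56.6 in untreated polyps, 62.6 and 44.6 with c-di-AMP, 47.6 and 40.9 with 3'3'-cGAMP, and 12402 and 13206 with 2'3'-cGAMP. In that gene the libraries of c-di-AMP overlapped the untreated ones.

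The run LOC5505316, LOC5505323, LOC5505313 and LOC5505319 was the lowest, with 176 to 601 normalised counts with 2'3'-cGAMP and 0 to 25.5 in untreated polyps. The log2 changes were 5.64, 4.25, 7.83 and 5.40. LOC5505313 had the same values, to 6 decimals, as NCBI Gene 5500827 in all 10 libraries, so the reads of these genes cannot be told apart and its values are uncertain. LOC5505319 had 0 and 16.8 normalised counts in untreated polyps, and without untreated replicate 1 its change was 3.33 (adjusted p = 0.055, limma), no longer called. Of all tested genes, 38 had such an identical partner, 2 of them strongly raised.

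**Figure D4:**
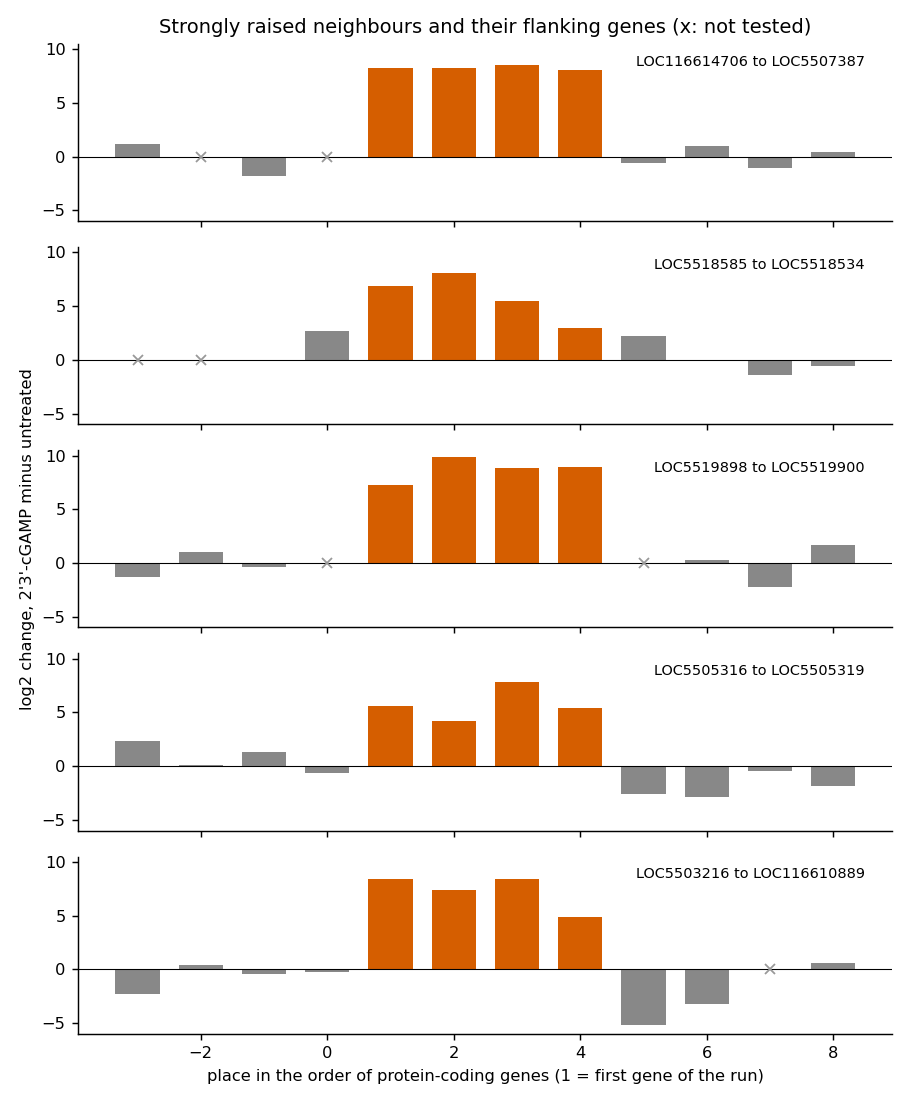
Log2 change between 2'3'-cGAMP and untreated polyps along the order of protein-coding genes, for the 5 runs of 4 strongly raised neighbours and 4 genes to each side (crosses mark genes not tested). Each run stands above its flanking genes, and the last run is followed by genes at -5.20 and -3.26.

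Embryos offered a look at the same genes in other libraries, at a lower dose and a shorter time, with another extraction and library kit. The tables were scaled separately, so levels are given side by side and no test was made. Of the strongly raised genes, 1058 were tested in the embryo table, and 875 (82.7%) were higher in both 2'3'-cGAMP embryo libraries than in both untreated ones, against 19.3% of all genes in that table. Lower without overlap were 10. Of 689 strongly lowered genes, 318 (46.2%) were lower without overlap in embryos, against 16.6% of all, and 23 (3.34%) were higher. With equal totals in embryos the shares were 76.1% of the strongly raised genes, against 13.1% of all, and 57.5% of the strongly lowered genes, against 27.2% of all.

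The embryo libraries differed among themselves. In untreated library 1, 21.6% of genes were listed at 0, and in 2'3'-cGAMP library 4 14.4% were, against 3.99% in untreated library 2 and 4.50% in 2'3'-cGAMP library 5. Between the last 2 libraries alone, 1000 of the 1058 strongly raised genes (94.5%) were higher with 2'3'-cGAMP, against 50.1% of all genes, and 590 of 689 strongly lowered genes (85.6%) were lower, against 49.4% of all. With 1 library each, these counts have no replicate check.

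All 12 genes of largest rise were higher in embryos without overlap, against 19.3% of all genes in that table. LOC5517508 had 107 and 326 normalised counts in untreated embryos and 47357 and 46487 with 2'3'-cGAMP, and LOC5512707 had 1655 and 1899 against 64685 and 68702. LOC5507694, at 93.6 and 79.97 against 839 and 786, moved less there. Of the 5 runs of neighbours, 4 had all 4 genes higher in embryos without overlap, and the run that starts with LOC5505316 had none. The genes of that run had 0 to 19.9 normalised counts in all 4 embryo libraries.

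**Figure D5:**
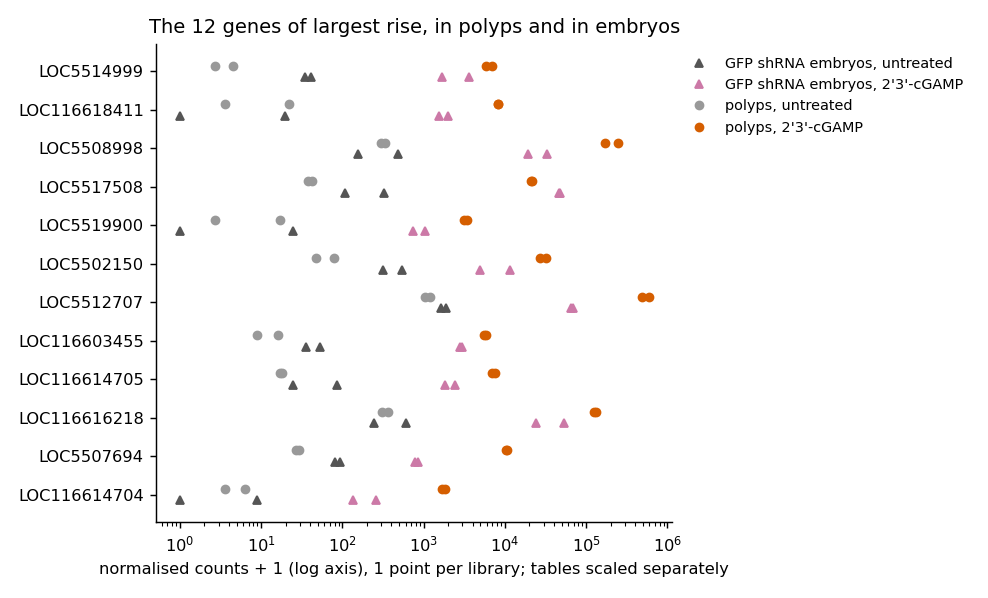
Normalised counts plus 1 (log axis) of the 12 genes of largest rise in polyps and in GFP shRNA embryos, untreated or given 2'3'-cGAMP, 1 point per library, with the tables scaled separately. In every row the 2'3'-cGAMP points of polyps and of embryos lie to the right of their own untreated points.

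Of the 8 genes of largest fall, 3 were lower in embryos without overlap and 1 was higher. Of all genes in the embryo table, 16.6% were lower and 19.3% higher without overlap. With 8 genes, no difference from those shares was tested. LOC5510380 had 317 and 311 normalised counts in untreated embryos and 32.7 and 41.8 with 2'3'-cGAMP, and LOC5514701 had 2887 and 2068 against 890.3 and 357. LOC5505115 had 665 and 676 against 422 and 287. LOC116616309 and LOC5517034, abundant genes that fell in polyps, had 72058 and 60059.5 against 50665 and 53212, and 24222 and 69397 against 24262 and 71816.5. The first pair of groups did not overlap and the second did.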

How the data were processed

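Per the labels, the deposited values are normalized counts per gene, a signal scaled by the authors; the submitters' processing notes name FastQC 0.11.9, kallisto 0.46.1 and DESeq2, and the transcriptome build is not given in the sources used here. Among low values of polyps, 82.1 to 83.5% were whole multiples of 1 read (tolerance 0.0001 of a read), so whole reads were not recovered and no count test was run. Depth was estimated as the total divided by the value of 1 read.

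Values were fitted on log2(value + 1) by limma 3.58.1 (R 4.3.3). Each group's mean came from its own 2 libraries, and a trended moderated variance from all 10 polyp libraries. Two-sided p-values received a Benjamini-Hochberg adjustment over 18511 of 21260 genes. The step was tested on simulated data. Fold changes on this scale understate the change of low genes.

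Identifiers matched the reference for 76.4% of genes. Pathway and cell-type lists could not be matched, since the reference holds no descriptions, so the tissue was not checked against markers. Called genes with a mean of at least 50, no overlap and a reference entry were eligible for naming. Named were the 12 largest rises and 8 largest falls on the log2 scale. The 6 largest rises and 4 largest falls in normalised counts were added. So were 4 quiet genes, which were not called, and up to 2 genes each way without an entry. Comparisons, lists and this rule were chosen with earlier results of these data known. No positions are given.

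Alternatives covered the pseudocount, the filter, scaling, the groups fitted alone, thresholds, the replicate number as a block and each library left out. Those on neighbours and on embryo libraries were chosen after seeing the data.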

Additional observations from a re-analysis of the deposited data

Results flagged for a closer look

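LOC116603002 moved in opposite directions in the 2 experiments. In polyps it had 128 and 92.9 normalised counts untreated and 0 and 1.90 with 2'3'-cGAMP, a log2 change of -6.02. In GFP shRNA embryos it had 14.2 and 22.7 normalised counts untreated and 46.5 and 70.9 with 2'3'-cGAMP. The groups did not overlap in either experiment, and the difference was not tested. Dose, time, stage and library kit differed between the experiments.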

How the results depend on the processing

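With all polyp libraries in the fit, 10828 genes were called against untreated polyps, 10361 against c-di-AMP, 10746 against 3'3'-cGAMP and 10365 against c-di-GMP. With the 2 compared groups fitted alone, the calls were 9273, 9100, 8705 and 9435 in the same order. With the replicate number as a block, 10736 genes were called against untreated polyps, 10276 against c-di-AMP, 10644 against 3'3'-cGAMP and 10272 against c-di-GMP. Same-numbered libraries did not deviate together (correlations from -0.0988 to 0.0678), so the number does not pair them. With 1 library left out at a time, the calls ran from 9086 to 10286 against untreated, 8364 to 9895 against c-di-AMP, 9108 to 10233 against 3'3'-cGAMP and 8287 to 9872 against c-di-GMP. The counts of calls in both directions together stayed within 1.5 times their main value under every alternative run, but the counts per direction did not. With equal totals, genes called higher against untreated went from 5271 to 2123 and genes called lower from 5557 to 11298, and the other 3 comparisons moved likewise. For the 51 named genes, 605 of 611 log2 changes kept their direction and their side of the threshold. With equal library totals LOC5504418 turned to -0.0497, LOC5505826 to -1.15 and LOC5525231 to -1.15, and LOC116620378 (-1.15) and LOC5510265 (-1.16) became called as lower. LOC5505319 lost its call without untreated replicate 1 (3.33). Equal totals lower log2 changes by construction, and by less in genes near 0, where the pseudocount weighs more. LOC116603002 went from -6.02 to -6.51, and the abundant LOC116616309 from -3.86 to -5.01. Each group held 2 libraries, and genes below 10 normalised counts had intervals of about 2.17 to each side.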
